A study of Homo sapiens with 3 samples.

Results

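The genes that govern passage through the G1 phase of the cell cycle were read in 3 RNA libraries of Ishikawa, a long-established line grown from a human endometrial adenocarcinoma. The set was given as a list of gene names: the D cyclins CCND1, CCND2 and CCND3, the E cyclins CCNE1 and CCNE2, the kinases CDK4 and CDK6, the inhibitor genes CDKN1B and CDKN2A, and RB1. All 10 had a row among the 35713 rows kept, and all 10 were among the 14509 genes whose mean over the libraries reached 1 RPM (reads per 1000000 reads of a library). In 2 libraries, CLDN6 replicates 1 and 2, the cells carried CLDN6, the gene of the tight junction protein claudin-6, from a CSII lentiviral vector; the labels call this overexpression transient. The third library, WT, is from wild-type cells that were left untreated. All cells grew in RPMI 1640 medium with serum. WT is a single library, and no library from cells with an empty vector was analysed here, so the vector, its delivery and CLDN6 cannot be told apart. The labels do not say that the CLDN6 libraries came from separate cultures, so p-values here reflect sample-to-sample spread that may be purely technical.

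The G1 pathway decides whether a cell starts DNA synthesis. Growth signals raise the D cyclins, which bind CDK4 or CDK6, and the active kinases phosphorylate the retinoblastoma protein RB, the product of RB1. Phosphorylated RB lets go of E2F factors, which turn on the E cyclins and other genes of S phase entry, and cyclin E with CDK2 completes the switch. The CDKN1B product p27 holds back cyclin E complexes, and the CDKN2A product p16 holds back CDK4 and CDK6. In the endometrial epithelium, estrogen drives proliferation in part through cyclin D1.

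The libraries held 65755119 to 71088867 reads, of which 68.1% to 68.2% lay in listed genes. CLDN6 stood at 354 and 413 RPM in replicates 1 and 2 and at 0.236 RPM in WT, so the libraries matched their labels as CLDN6 or WT. The CLDN6 level cannot check the name of the cell line or which CLDN6 library is replicate 1. All 7 epithelial markers had reads in every library, with a summed level of 6097 to 6393 RPM, and so did the 4 markers of the Mullerian lineage, with 248 to 383 RPM. Of 7 mesenchymal markers, DCN, LUM and PDGFRB had 0 reads in all 3 libraries. Their summed level was 17.2, 49.5 and 22.6 RPM in replicate 1, replicate 2 and WT, nearly all of it COL1A1. The leukocyte marker PTPRC had 2, 1 and 4 reads, with 0.844 to 1.27 RPM for the 4 leukocyte markers together. The endothelial marker PECAM1 had 0 reads in all 3, and the summed level of the 3 endothelial markers, 9.99 to 16.3 RPM, was VWF apart from 3 reads of CDH5 in replicate 2. The 4 ciliated cell markers summed to 349, 25.6 and 133 RPM in replicate 1, replicate 2 and WT, and the 4 proliferation markers to 1192, 551 and 1069 RPM. Both sums thus stood lowest in replicate 2. That of the proliferation markers was carried by MKI67 (492, 99.5 and 441 RPM) and TOP2A (379, 74.2 and 287 RPM), while MCM2 was highest in replicate 2 (178, 275 and 248 RPM) and PCNA lowest in WT (144, 103 and 93.2 RPM). The CAPS level was highest in WT, at 62.7 RPM, and the other ciliated markers were highest in replicate 1. The part of these markers in the differences between the CLDN6 libraries was not tested. In bulk RNA, fewer cells of a type and less RNA per cell cannot be told apart.

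Across the 10 genes, the CLDN6 libraries lay on opposite sides of WT more often than on the same side, as for most genes tested. CCND1, CCNE2, CDKN1B and RB1 were highest in replicate 1 and lowest in replicate 2, with WT between. CCND3, CCNE1, CDK4 and CDKN2A had the reverse order, highest in replicate 2 and lowest in replicate 1. CCND2, the gene of cyclin D2, and CDK6 were the members below WT in both CLDN6 libraries. No member was above WT in both.

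In numbers, 2 of the 10 members lay below WT in both CLDN6 libraries, where 15.1% of all genes tested did, and 0 lay above in both, where 9.06% of all genes did. WT lay between with replicate 1 high for 4 members, as for 53.8% of all genes, and with replicate 2 high for 4, as for 22.0% of all genes. CCND2 alone was at least 2-fold below WT in both, a pattern of 0.193% of all genes. The limma test of CLDN6 against WT, on log2(RPM + 1) values with Benjamini-Hochberg adjustment over all 14509 genes, called 0 of the 10 members and 0.00689% of all genes, which is CLDN6 itself. Among the members, 0 had an unadjusted p under 0.05 in that test, and limma-voom on recovered reads called 0 as well, with 0 under 0.05. The WT library has no replicate, so the test takes its spread from the CLDN6 pair, shared across genes of a like level.

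**Figure D1:**
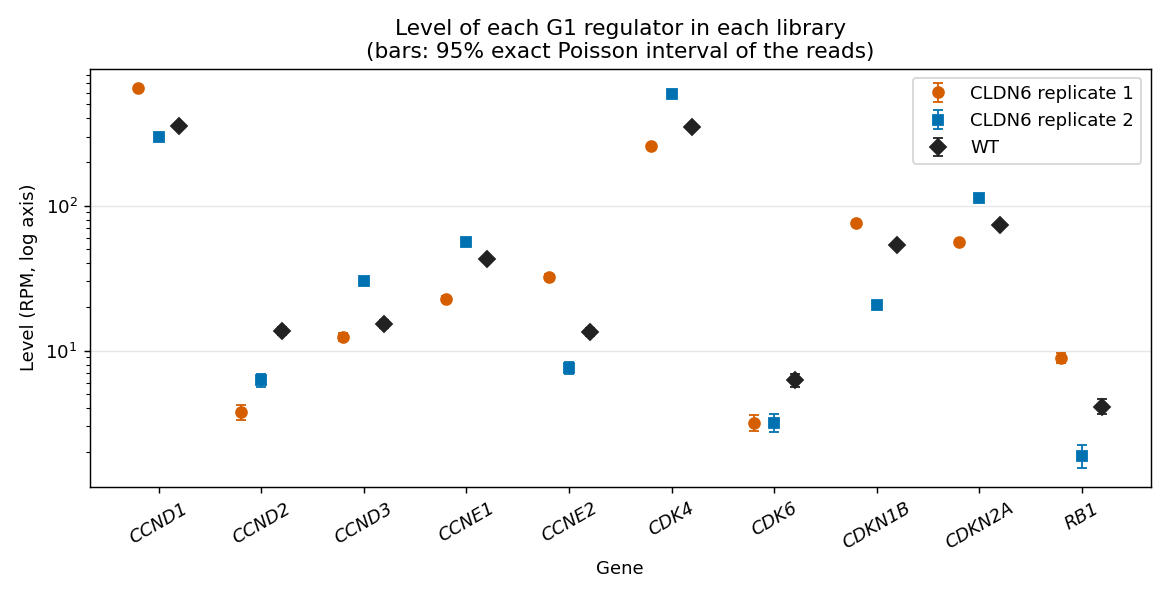
Level of each of the 10 genes (horizontal axis) in RPM on a log axis, with 1 point per library and the 95% exact Poisson interval of its reads as a bar. For CCND2 and CDK6 both CLDN6 points lie under the WT point; for the other genes WT lies between them.

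The D cyclins are the growth-signal sensors of the pathway. CCND1 (ENSG00000110092, chromosome 11 from 69641087 to 69654474, plus strand), the gene of cyclin D1, was at 647 RPM in replicate 1 and 296 RPM in replicate 2, against 357 RPM in WT. Replicate 1 stood apart above the other libraries, and replicate 2 and WT lay nearer to each other. The ratio of replicate 1 to WT was 1.81, with a 95% interval of 1.79 to 1.84, and that of replicate 2 to WT was 0.830, with an interval of 0.814 to 0.845. These intervals, as all others here, come from the reads alone and cover counting error only, since PCR copies are not independent molecules. The fitted log2 change was 0.29 ± 0.93 (SE; adjusted p = 0.99996, limma), so the difference from WT was within the spread of the CLDN6 pair. ORAOV1, on the opposite strand, shares 1399 bases with CCND1 and had 3897, 2045 and 2176 reads beside 46025, 19470 and 24215 of CCND1.

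CCND2 (ENSG00000118971, chromosome 12 from 4273772 to 4305350, plus strand) was at 3.76 RPM in replicate 1 and 6.22 RPM in replicate 2, against 13.7 RPM in WT. With 267, 409 and 932 reads in replicate 1, replicate 2 and WT, the read intervals of both CLDN6 libraries, 3.32 to 4.23 and 5.63 to 6.85 RPM, lay under that of WT, 12.9 to 14.6 RPM. WT was above replicate 1 by 3.66-fold (3.19 to 4.21) and above replicate 2 by 2.21-fold (1.96 to 2.49). Its log2 change of -1.33 ± 1.27 (SE; adjusted p = 0.99996, unadjusted p = 0.296, limma) was the largest in size among the members and did not pass the test. The antisense row CCND2-AS1 shares 2413 bases with CCND2 and had 3, 11 and 22 reads, few beside those of CCND2.

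CCND3 (ENSG00000112576, chromosome 6 from 41934933 to 42050357, minus strand), the gene of cyclin D3, was at 12.4 RPM in replicate 1 and 30.3 RPM in replicate 2, against 15.2 RPM in WT. Here replicate 2 was the high library, 1.99-fold above WT (1.85 to 2.15), while replicate 1 lay at 0.812 of WT (0.742 to 0.889). The log2 change was 0.33 ± 1.16 (SE; adjusted p = 0.99996, limma). Within the CLDN6 pair, CCND1 and CCND3 thus had opposite orders, 2.19-fold higher in replicate 1 for CCND1 and 2.45-fold higher in replicate 2 for CCND3.

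Coding stretches of the D cyclins show how the G and C content of the paralogs differs. Each runs from base 301 to base 420 of the reading frame, counted from the start codon. The stretches were not aligned to each other. Capitals mark G and C. They were read from GENCODE 29 transcripts on GRCh38, and each spans the junction of exons 2 and 3: chr11:69643133-69643837 on the plus strand for CCND1, chr12:4276110-4278768 on the plus strand for CCND2 and chr6:41937389-41940483 on the minus strand for CCND3.
CCND1: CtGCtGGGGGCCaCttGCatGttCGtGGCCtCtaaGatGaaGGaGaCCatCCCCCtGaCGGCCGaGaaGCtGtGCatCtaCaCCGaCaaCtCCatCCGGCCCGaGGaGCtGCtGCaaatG
CCND2: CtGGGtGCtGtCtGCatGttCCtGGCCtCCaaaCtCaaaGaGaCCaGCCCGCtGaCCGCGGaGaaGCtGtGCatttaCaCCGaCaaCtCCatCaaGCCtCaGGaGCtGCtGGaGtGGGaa
CCND3: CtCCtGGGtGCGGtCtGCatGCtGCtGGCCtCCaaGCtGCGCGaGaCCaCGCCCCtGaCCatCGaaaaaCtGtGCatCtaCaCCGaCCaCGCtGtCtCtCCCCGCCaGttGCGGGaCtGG

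Over the whole reading frame, aligned bases were identical at 69.4% between CCND1 and CCND2, 68.2% between CCND1 and CCND3 and 69.6% between CCND2 and CCND3. The longest identical run was 23 bases, between CCND1 and CCND2. A row's reads over coding sequence can therefore be told from those of its paralogs wherever a read is longer than such a run; the read length is not given in the sources used here. G and C made up 60.0%, 57.5% and 64.2% of these stretches in CCND1, CCND2 and CCND3.

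Set per length, the D cyclins were far apart. CCND1 was at 134, 61.3 and 73.9 RPM per kilobase of merged exons in replicate 1, replicate 2 and WT, CCND3 at 2.13, 5.23 and 2.63, and CCND2 at 0.525, 0.869 and 1.92. The order CCND1, CCND3, CCND2 was the same in each of the 3 libraries, also with the length of the longest transcript. CCND1 made up 98.1%, 91.0% and 94.2% of this summed D cyclin level in replicate 1, replicate 2 and WT, and CCND2 0.384%, 1.29% and 2.45%. The ratio of CCND1 to CCND2 per kilobase was 255 and 70.5 in the CLDN6 libraries and 38.5 in WT. As deposited, both CLDN6 libraries thus had a higher ratio than WT. That of CCND1 to CCND3 was 62.8 and 11.7 around a WT ratio of 28.1, and with the longest transcripts 29.1 and 5.42 around 13.0. By that length CCND1 made up 96.3%, 83.5% and 90.7% of the D cyclin level in replicate 1, replicate 2 and WT, and CCND3 3.31%, 15.4% and 6.97%.

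**Figure D2:**
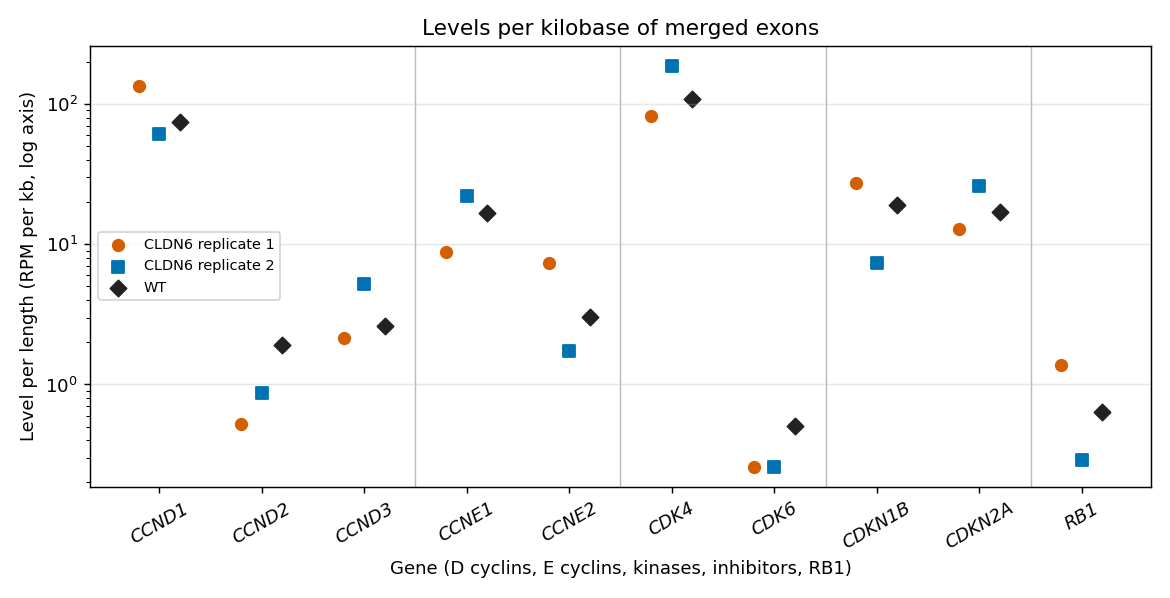
Level per kilobase of merged exons (RPM per kb, log axis) of each gene in each of the 3 libraries, grouped by role with grey lines. CCND1 and CDK4 lie far above CCND2, CCND3 and CDK6, and CCNE1 and CCNE2 come nearest to each other in CLDN6 replicate 1.

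Of the kinases that the D cyclins activate, CDK4 (ENSG00000135446, chromosome 12 from 57747727 to 57756013, minus strand) was at 259 RPM in replicate 1 and 592 RPM in replicate 2, against 347 RPM in WT. Replicate 2 was the high library, 1.71-fold above WT (1.68 to 1.74), and replicate 1 lay at 0.747 of WT (0.733 to 0.762). The log2 change was 0.18 ± 0.93 (SE; adjusted p = 0.99996, limma). The row of TSPAN31, on the opposite strand, overlaps 2485 bases of CDK4 and had 6260, 11967 and 7453 reads beside 18414, 38933 and 23521 reads of CDK4. MARCHF9 overlaps 916 bases of CDK4 and had 2407, 1752 and 2081 reads, in the reverse order. Since the strand setting is not known, the split between these rows is uncertain.

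CDK6 (ENSG00000105810, chromosome 7 from 92604921 to 92836594, minus strand) gave the closest CLDN6 pair of the 10 genes. Its level was 3.179 RPM in replicate 1 and 3.178 RPM in replicate 2, against 6.22 RPM in WT, from 226, 209 and 422 reads. Each CLDN6 library was at 0.511 of WT, with intervals of 0.433 to 0.602 and 0.431 to 0.605, and their read intervals did not reach that of WT, 5.64 to 6.84 RPM. The log2 change was -0.79 ± 1.23 (SE; adjusted p = 0.99996, unadjusted p = 0.522, limma). The shared spread of the test, not the closeness of the pair at CDK6, sets that error.

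A coding stretch of each kinase, bases 301 to 420 of the reading frame across exons 3 and 4 with G and C in capitals, shows the pair of related sequences whose levels had different orders over the libraries. It lies at chr12:57751025-57751260 for CDK4 and at chr7:92725743-92774764 for CDK6, both on the minus strand of GRCh38.
CDK4: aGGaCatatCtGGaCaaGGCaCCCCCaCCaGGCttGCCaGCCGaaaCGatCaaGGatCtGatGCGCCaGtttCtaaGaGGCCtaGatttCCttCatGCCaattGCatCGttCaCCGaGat
CDK6: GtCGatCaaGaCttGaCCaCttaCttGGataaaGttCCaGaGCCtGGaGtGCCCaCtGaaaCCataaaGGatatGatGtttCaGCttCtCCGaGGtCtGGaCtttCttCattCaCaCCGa

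The reading frames of CDK4 and CDK6 were identical at 68.4% of aligned bases, with a longest shared run of 16 bases. Per kilobase of merged exons, CDK4 was at 81.8, 187 and 109 RPM in replicate 1, replicate 2 and WT, and CDK6 at 0.2593, 0.2593 and 0.507 RPM. The ratio of CDK4 to CDK6 was 315 and 721 in the CLDN6 libraries and 216 in WT; with the longest transcript as the length it was 456, 1042 and 312. As deposited, the ratio was higher in each CLDN6 library than in WT. The choice of length cannot alter that order, since a gene has the same length in every library.

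The E cyclins, which act with CDK2 after the D cyclins, had opposite orders within the CLDN6 pair. CCNE1 (ENSG00000105173, chromosome 19 from 29811898 to 29824308, plus strand) was at 22.6 RPM in replicate 1 and 55.9 RPM in replicate 2, against 42.7 RPM in WT. Replicate 1 was the low library, at 0.530 of WT (0.498 to 0.563), and replicate 2 was 1.31-fold above WT (1.25 to 1.37). The log2 change of CCNE1 was -0.25 ± 1.03 (SE; adjusted p = 0.99996, limma). No other row of the table overlaps CCNE1.

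CCNE2 (ENSG00000175305, chromosome 8 from 94879770 to 94896678, minus strand) was at 32.5 RPM in replicate 1 and 7.59 RPM in replicate 2, against 13.4 RPM in WT. It was 2.42-fold above WT in replicate 1 (2.24 to 2.62) and at 0.566 of WT in replicate 2 (0.507 to 0.632). Its log2 change was 0.24 ± 1.19 (SE; adjusted p = 0.99996, limma). The row of INTS8, on the opposite strand, shares 1977 bases with CCNE2 and had 3624, 824 and 1697 reads, the same order of libraries as CCNE2, so reads of the overlap are uncertain. NDUFAF6 shares 912 bases with CCNE2 and had 702, 587 and 625 reads.

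Per kilobase, the ratio of CCNE1 to CCNE2 was 1.20 in replicate 1, 12.7 in replicate 2 and 5.50 in WT. Cyclin E1 RNA was thus the more abundant in each library by this measure, and nearly level with cyclin E2 RNA in replicate 1. With the longest transcript as the length the ratios were 1.14, 12.0 and 5.20.

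The inhibitor genes also had opposite orders. CDKN1B (ENSG00000111276, chromosome 12 from 12715058 to 12722371, plus strand), the p27 gene, was at 76.3 RPM in replicate 1 and 20.8 RPM in replicate 2, against 53.5 RPM in WT. Replicate 2 was the low library, with WT 2.58-fold above it (2.42 to 2.74), and replicate 1 was 1.43-fold above WT (1.37 to 1.49). The log2 change was -0.41 ± 1.01 (SE; adjusted p = 0.99996, limma).

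CDKN2A (ENSG00000147889, chromosome 9 from 21967753 to 21995301, minus strand) encodes p16 and, from another first exon and in another frame, the p53 pathway protein ARF; a row per gene cannot part these transcripts. It was at 56.0 RPM in replicate 1 and 112 RPM in replicate 2, against 74.0 RPM in WT. Replicate 2 was 1.52-fold above WT (1.46 to 1.57) and replicate 1 at 0.758 of WT (0.726 to 0.790). The log2 change was 0.10 ± 0.95 (SE; adjusted p = 0.99996, limma). A row without a protein product spans the whole gene on the opposite strand and had 422, 174 and 360 reads beside 3983, 7382 and 5018 reads of CDKN2A, and CDKN2B-AS1 had 221, 50 and 131. Per kilobase of merged exons the ratio of CDKN1B to CDKN2A was 2.10, 0.285 and 1.11 in replicate 1, replicate 2 and WT, and with the longest transcripts 0.657, 0.0893 and 0.349. Which inhibitor gene was the more abundant in replicate 1 and WT therefore depends on the length used.

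RB1 (ENSG00000139687, chromosome 13 from 48303751 to 48481986, plus strand), whose product the G1 kinases act on, was at 8.92 RPM in replicate 1 and 1.87 RPM in replicate 2, against 4.10 RPM in WT. From 634, 123 and 278 reads, replicate 1 was 2.18-fold above WT (1.89 to 2.52) and replicate 2 was at 0.456 of WT (0.366 to 0.566). The CLDN6 libraries differed by 4.77-fold (3.92 to 5.83), an interval that overlaps that of CCNE2 (4.28-fold, 3.88 to 4.72), and the log2 change was 0.07 ± 1.24 (SE; adjusted p = 0.99996, limma). LPAR6, a gene within an RB1 intron, had 0 reads in all 3 libraries.

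**Figure D3:**
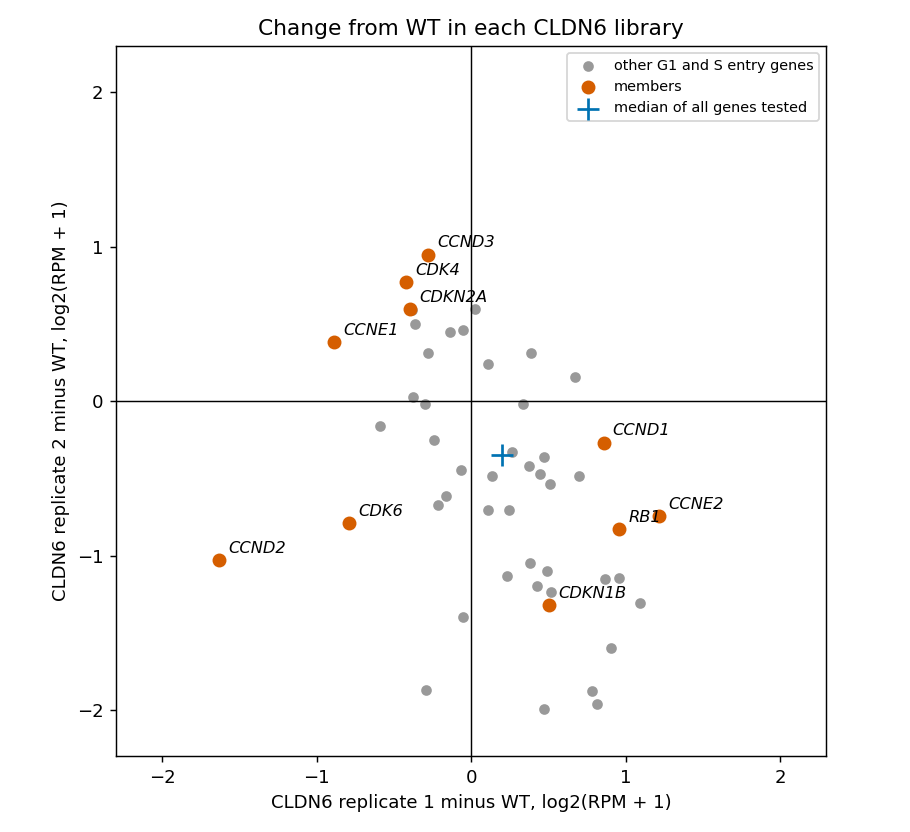
Difference from WT in CLDN6 replicate 1 (horizontal axis) and CLDN6 replicate 2 (vertical axis), both in log2(RPM + 1), for the 10 members (orange, named) and the 40 other genes of G1 and S phase entry (grey), with the median of all genes tested as a blue cross. The members CCND2 and CDK6 lie in the lower left and 0 members lie in the upper right.

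The level of the median gene was shifted between the libraries, while single genes went either way. The median of the 14509 genes lay 0.20 log2 units above WT in replicate 1 and at -0.35 in replicate 2. Relative to these medians, CCND2 was at -1.83 and -0.68 and CDK6 at -0.99 and -0.44 in replicates 1 and 2, so both stayed under the median gene in both libraries. CCND1 was at 0.66 and 0.08 and was the member above the median gene in both. Its difference from WT in replicate 2 changed sign with the scaling, at -0.27 as deposited, 0.15 with trimmed-mean scaling and 0.16 with median-ratio scaling, and at -0.40 with quantile normalization.

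On the log2(RPM + 1) scale, replicates 1 and 2 were separated by 2-fold or more for 7 of the 10 members, as were 43.4% of all genes tested. Of the 10, 4 were at least 2-fold higher in replicate 1, beside 36.2% of all genes tested. At least 2-fold higher in replicate 2 were 3 of the 10, beside 7.15% of all genes tested. By the ratio of RPM the count of members at least 2-fold apart was 8, with CDKN2A (56.0 and 112 RPM) added. For 9 members the read intervals of the CLDN6 libraries did not overlap, CDK6 being the exception; at this depth the same held for 89.6% of all genes tested. The order went in part with the base composition of the longest transcript. The 4 members with the highest GC content in their longest transcript, CDKN2A (61.4%), CCND3 (56.2%), CDK4 (53.6%) and CCNE1 (52.9%), were all 4 higher in replicate 2, as were 60.3% of all genes with at least the GC content of CCNE1. Of the other 6 members, the 4 that were at least 2-fold higher in replicate 1 were CCND1 (50.3%), CDKN1B (47.7%), RB1 (37.3%) and CCNE2 (36.9%), while CCND2 (45.5%) was 1.66-fold higher in replicate 2 and CDK6 (39.5%) was level. Among all genes of lower GC content than CCNE1, 51.2% were at least 2-fold higher in replicate 1. The division at CCNE1 was chosen after the values were seen, and it does not hold for the coding sequence alone: CCND1 (61.2%) and CDKN1B (58.8%), higher in replicate 1, have more G and C there than CDK4 (54.1%) and CCNE1 (48.5%).

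A coding stretch of RB1 shows a sequence with few G and C (in capitals), fewer than its longest transcript (37.3%) or whole reading frame (39.0%) holds. It is made of bases 301 to 420 of the reading frame, across exons 3 and 4 at chr13:48342635-48345119 on the plus strand of GRCh38, and G and C make up 32.5% of it.
RB1: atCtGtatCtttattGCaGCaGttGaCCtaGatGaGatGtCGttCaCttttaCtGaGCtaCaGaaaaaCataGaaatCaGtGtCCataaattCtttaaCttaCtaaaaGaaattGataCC

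The dependence of log2 values on transcript length, GC content and average level was then fitted in each library over 14372 genes and removed. After this, 5 of the 10 members differed by 2-fold or more within the CLDN6 pair, beside 16.0% of all genes: CCND1, CCND3 and CDKN1B, 3 of the earlier 7, and CCND2 and CDK6, which had not done so before. The difference, replicate 1 minus replicate 2, went from 1.79 to -0.12 log2 units for RB1, from -0.99 to 0.01 for CDKN2A, from 1.96 to 0.63 for CCNE2 and from -1.19 to -0.43 for CDK4. It was 1.83 before and 1.71 after for CDKN1B, -1.23 and -1.02 for CCND3, and -1.27 and -0.94 for CCNE1, which was then less than 2-fold apart. For CCND1 it was slightly larger after, at 1.13 and 1.20. For CCND2 it grew from -0.60 to -2.09, and for CDK6, which has the longest transcript of the members at 11612 bases, from 0.00 to -2.36.

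After the removal CCND2 was at -2.23 from WT in replicate 1 and at -0.14 in replicate 2, still below WT in both, and CDK6 was at -1.76 and 0.60, no longer on the same side. In replicate 2, CCND1 was then at -0.23, under CCND2, and CDK4 at 0.41, under CDK6. The higher ratios of CCND1 to CCND2 and of CDK4 to CDK6 seen as deposited thus did not remain in that library. In replicates 1 and 2, CCNE1 was then at -0.70 and 0.24 from WT and CCNE2 at 0.61 and -0.02. CDKN1B was at 0.48 and -1.23. The ratios of CCNE1 to CCNE2 and of CDKN1B to CDKN2A thus stayed on opposite sides of WT in the CLDN6 pair, with a smaller gap than as deposited. CDKN2A, at 0.16 and 0.15, and RB1, at 0.08 and 0.20, lay above WT in both CLDN6 libraries. Cyclin D2 RNA was thus the member below WT in both CLDN6 libraries under each scaling and after the removal of the trend, although not 2-fold in both under the 3 other scalings or after that removal.

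**Figure D4:**
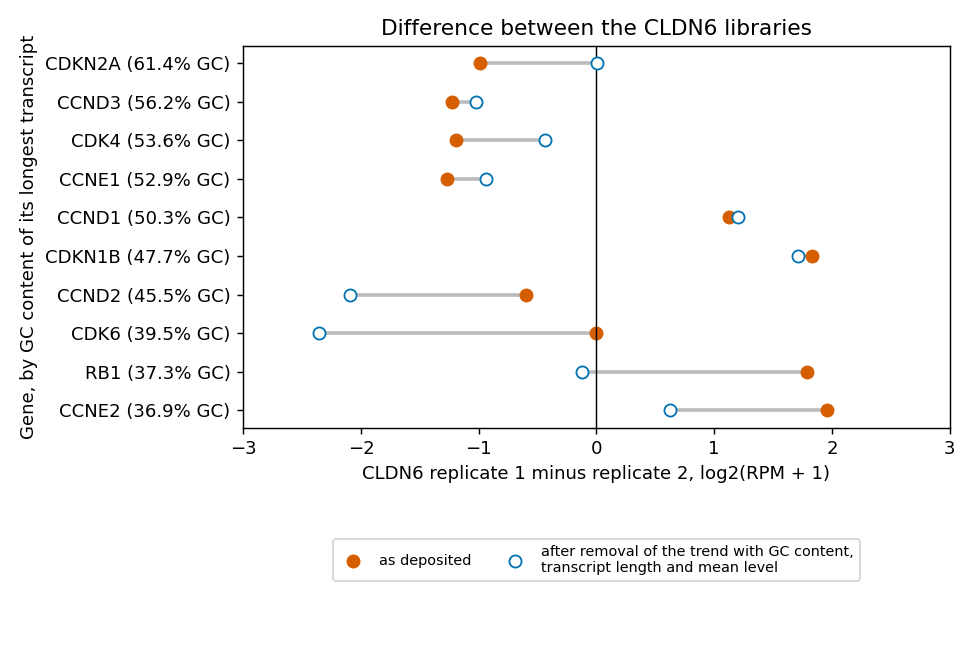
Difference between the CLDN6 libraries (replicate 1 minus replicate 2, log2(RPM + 1), horizontal axis) for the 10 genes, ordered from the lowest GC content at the bottom to the highest at the top. Filled points are values as deposited and open points those after removal of the trend; RB1 and CDKN2A moved close to 0, CCND1, CDKN1B and CCND3 were 2-fold or more apart in both, and CDK6 left 0.

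The wider pathway was described with 40 other genes in 6 groups, all of which passed the filter. Of these, 0 passed the limma test and 0 had an unadjusted p under 0.05 (lowest 0.391, for CDKN1C). Both CLDN6 libraries lay below WT for 8 of the 40 and above it for 4, beside 15.1% and 9.06% of all genes tested. WT lay between for 28, with replicate 1 high for 22 and replicate 2 high for 6, beside 53.8% and 22.0% of all genes. At least 2-fold apart within the CLDN6 pair were 16, beside 43.4% of all genes. Of the 40, 16 were at least 2-fold higher in replicate 1, beside 36.2% of all genes tested. At least 2-fold higher in replicate 2 were 0 of the 40, beside 7.15% of all genes tested. Their median difference from WT was 0.26 in replicate 1 and -0.48 in replicate 2, beside 0.20 and -0.35 for all genes tested.

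Among the other CDK inhibitors, CDKN1A, the gene of the p53 target p21, was at 166, 28.4 and 88.1 RPM in replicate 1, replicate 2 and WT. That is the order of CDKN1B and of 53.8% of all genes tested. CDKN1C, the p57 gene, was at 7.69, 1.92 and 9.67 RPM and CDKN2C, the p18 gene, at 37.1, 14.0 and 38.6 RPM, both lowest in replicate 2. CDKN2B, the neighbor of CDKN2A and gene of p15, was at 4.02, 2.51 and 2.15 RPM. CDKN2D, the p19 gene, was at 2.46, 2.80 and 2.21 RPM and differed least among the 5.

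The pocket proteins related to RB had the order of RB1, as did 53.8% of all genes tested. RBL1, the p107 gene, was at 30.6, 6.81 and 16.3 RPM, and RBL2, the p130 gene, at 52.3, 7.47 and 30.1 RPM in replicate 1, replicate 2 and WT. Of the 10 E2F and DP factors, 3 lay below WT in both CLDN6 libraries and 1 above in both, beside 15.1% and 9.06% of all genes. E2F1, an activator of S phase genes, was at 47.8, 64.7 and 72.5 RPM, and E2F4, a factor that acts with pocket proteins as a repressor, was at 36.3, 66.9 and 46.9 RPM. Its order was that of CDK4 and CCNE1, and of 22.0% of all genes tested.

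Among the partners, CDK2, the kinase of cyclin E, was at 116, 91.1 and 92.2 RPM and CCNA2, the cyclin A2 gene of S phase, at 70.5, 51.2 and 79.0 RPM. CDC37, the cochaperone that loads CDK4 onto HSP90, was at 79.2, 157 and 104 RPM. This order of libraries is that of CDK4 itself and of 22.0% of all genes tested. Of the turnover genes, SKP2, the F-box protein that marks p27 for destruction, was at 64.0, 27.6 and 39.0 RPM, and FBXW7, which does so for cyclin E, at 18.3, 3.48 and 8.92 RPM. Both had the order of CDKN1B and CCNE2, highest in replicate 1 and lowest in replicate 2, as did 53.8% of all genes tested. AMBRA1, which targets the D cyclins, was at 30.7, 37.3 and 37.9 RPM. Of the 8 genes that act upstream of cyclin D, WT lay between for 7. Replicate 1 was high for 5 and replicate 2 for 2, beside 53.8% and 22.0% of all genes tested. FOXO3, a factor that turns on CDKN1B, was at 36.4, 4.46 and 20.2 RPM, and TCF7L2, the partner of beta-catenin, at 11.0, 10.9 and 13.2 RPM, the one of the 8 below WT in both CLDN6 libraries.

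By the distance between differences from WT in the 2 CLDN6 libraries, taken as the larger of the 2 gaps, the genes nearest to CCND1 among 2904 protein-coding genes of at least 50 RPM were LPCAT1 (0.03 log2 units), VGLL4 (0.07) and PRDX3 (0.09). Nearest to CDK6 were CRIP2 (0.08), CDC25B (0.09) and SLC16A3 (0.10). CRIP2 was at 151, 135 and 247 RPM, and CDC25B, a phosphatase that activates CDKs, at 85.0, 82.9 and 153 RPM in replicate 1, replicate 2 and WT. The differences are of log2(RPM + 1), which understates that of CDK6, at 3.18 to 6.22 RPM, more than those of the genes searched. The nearest genes to CDK6 and their distances therefore depend on that scale. They also hold as deposited only, since CDK6 was at -1.76 and 0.60 after the trend removal. Over 3 libraries such likeness describes these samples only.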

How the data were processed

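RNA sequencing of 3 Ishikawa libraries was analysed from 1 table of 35805 rows. The values deposited by the authors are log2 RPM per gene, which was read from the values themselves: at least 99.9275% of each library's values above 0 reads are whole multiples of 1 step (tolerance 0.05 of a read), and a gene without reads is listed at the value of 0.9 read, here replaced by 0. Per the submitters' processing notes the genome was GRCh38. No source used here names the aligner, counter, annotation, strand setting or read length. Columns were matched by the words CLDN6 1, CLDN6 2 and WT; their prefix ECC-1 is in no label. Names turned into dates (28) were restored by gene ID and 92 rows were left out (no gene ID, or a shared ID and no read). Lengths, GC content and coding sequences came from GENCODE 29, in which 34884 gene IDs were found, 91.4% of them with the table's start and end.

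The test was limma 3.58.1 with a mean-variance trend (R 4.3.3) on log2(RPM + 1), which understates changes of low genes, for genes of at least 1 RPM on average, two-sided, Benjamini-Hochberg, threshold 0.05, with 1 residual degree of freedom. Read intervals are exact Poisson for levels and conditional binomial for ratios (95%). Intervals use depths of 71088867, 65755119 and 67843384 reads in CLDN6 replicate 1, replicate 2 and WT. The trend removal fitted splines with 5 degrees of freedom for each property. Scripts were tested on simulated data. Named were the 10 genes, all 40 pathway genes as a pool, markers and the 3 nearest patterns to CCND1 and CDK6; members and lists were chosen with earlier results of these data known. Alternatives were a pseudocount of 0.1, other filters, trimmed-mean, median-ratio and quantile scaling, limma-voom, trend removal, a limit of 1.5-fold, and either CLDN6 library left out in turn; the count of members apart between the CLDN6 libraries and the second length measure were added after the data were seen.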

Additional observations from a re-analysis of the deposited data

How the results depend on the processing

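Under the 8 other settings, none of the 10 members passed the test and the sign of the fitted change was kept for each member in each setting that held it (adjusted p from 0.999939 to 1, limma; CDK6 and RB1 are not among genes of at least 5 RPM). The number of genes called, 1 as reported, was 0 without a filter on low values, with 1303 genes at an unadjusted p under 0.05, and 0 with limma-voom on recovered reads, with 8. No test is possible with a CLDN6 replicate left out, since no residual degree of freedom is left. The log2 difference from WT then ranged from -0.27 to 0.86 for CCND1, -1.63 to -1.03 for CCND2, -0.28 to 0.95 for CCND3, -0.89 to 0.38 for CCNE1, -0.75 to 1.22 for CCNE2, -0.42 to 0.77 for CDK4, -0.789 to -0.789 for CDK6, -1.32 to 0.50 for CDKN1B, -0.39 to 0.60 for CDKN2A and -0.83 to 0.96 for RB1, so 8 members changed sign with the library left out.

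The number of members differing from WT by 2-fold or more in each CLDN6 library, 1 as reported, was 0 with trimmed-mean, median-ratio and quantile scaling and after trend removal, and 2 with a 1.5-fold limit. The number on the same side of WT, 2 as reported, was 2 or 3. The number that differed by 2-fold or more within the CLDN6 pair, 7 as reported, was 5 to 8. No paired analysis was possible because WT is a single library with no replicate number. Depth limits RB1, CCND2 and CDK6 most, with 123 to 932 reads a library.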
